A study of Mus musculus with 9 samples.

Results

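Cux1 and Cux2 are the 2 mammalian genes of the Cut-like homeobox family. They are taken here as named genes, 2 of the 17487 gene symbols in the data. Levels of both were read from 9 single-cell RNA-seq libraries of mouse neocortex at E18.5. Each library came from 1 embryo, with 5 wild-type (WT) and 4 Tcf4 knockout (KO) embryos that were littermates from heterozygous breedings of the strain Tcf4ex4WT/lacZ. The KO embryos carried on both alleles a lacZ and neomycin cassette ahead of exon 4 of Tcf4, in all cells, which disrupts the long isoform of this transcription factor and leaves shorter isoforms. Libraries were made with 10x Genomics 3′ chemistry, version 2, which counts a transcript by a unique molecular identifier (UMI) at its 3′ end. The main comparison set the 3 WT libraries WT2, WT3 and WT4 against the KO libraries KO4 and KO5, and it asks whether loss of Tcf4 goes with a change in either gene and in which cells.

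Cux1 and Cux2 encode nuclear proteins with CUT repeats and a homeodomain that bind DNA. In the cerebral cortex both proteins are classical markers of upper layer neurons, many of which project through the corpus callosum, and they have been studied for their roles in dendrite branching and synapse formation. Cux2 transcripts are also known from intermediate progenitors and from a part of the cortical interneurons, while Cux1 is made in many tissues. Tcf4 is a basic helix-loop-helix factor of the E-protein family, whose dimers bind E-boxes, short sites with the letters CANNTG.

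Both genes lie on the minus strand of mouse chromosome 5 (GRCm38). Cux1 (ENSMUSG00000029705.17) spans chr5:136248135-136567490, or 319356 bases, and has 14 annotated transcripts, of which 9 code for protein. Those 9 end at 7 separate 3′ ends that lie up to 65099 bases apart. Cux2 (ENSMUSG00000042589.18) spans chr5:121856366-122050102, or 193737 bases, with 11 transcripts, of which 5 code for protein and end at 5 positions up to 31055 bases apart. The deposited values are summed per symbol, so the isoforms of either gene, and alternative products of the Cux1 locus with them, are not separated in any value below.

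The sequences before the gene starts are shown because Tcf4 dimers bind E-boxes. They are the 250 bases ahead of each RefSeq gene start (GRCm38.p6, minus strand, 5′ to 3′), with each match to CANNTG in capitals. The motif is its own reverse complement, so a match holds on both strands.
Cux2, first start, chr5:122049852-122050101: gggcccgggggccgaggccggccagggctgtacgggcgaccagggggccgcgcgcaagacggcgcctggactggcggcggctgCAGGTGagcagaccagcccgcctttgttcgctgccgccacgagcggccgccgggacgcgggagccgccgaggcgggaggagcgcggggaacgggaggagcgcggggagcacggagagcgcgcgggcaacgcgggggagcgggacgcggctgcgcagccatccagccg
Cux2, second start, chr5:122047826-122048075: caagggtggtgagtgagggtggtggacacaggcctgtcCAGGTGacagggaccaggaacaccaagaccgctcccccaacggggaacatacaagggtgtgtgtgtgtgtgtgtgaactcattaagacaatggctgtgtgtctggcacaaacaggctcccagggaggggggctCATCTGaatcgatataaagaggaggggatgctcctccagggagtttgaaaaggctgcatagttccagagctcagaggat
Cux1, chr5:136565982-136566231: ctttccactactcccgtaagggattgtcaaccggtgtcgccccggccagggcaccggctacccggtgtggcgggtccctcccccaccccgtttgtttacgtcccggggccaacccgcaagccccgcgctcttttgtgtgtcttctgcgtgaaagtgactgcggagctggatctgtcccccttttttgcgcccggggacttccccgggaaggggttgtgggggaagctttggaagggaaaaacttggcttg
The window of the first Cux2 start held 1 match, CAGGTG, which begins 167 bases before the start. A second Cux2 window held 2 matches, CAGGTG at 212 bases and CATCTG at 79 bases before its start, and the Cux1 window held 0. Of all RefSeq promoter windows of this length, 66.2% held at least 1 CANNTG, 31.8% held 2 or more, and 17.2% held CAGGTG or its reverse complement CACCTG. The first Cux2 window was rich in G and C at 80% of its bases, more than 98.8% of all windows, against 55.2% in the second and 62.8% in the Cux1 window. The windows lie inside the gene spans given above, since other annotated transcripts begin further upstream. Coding transcripts of Cux1 start as far upstream as 136567445 (Cux1-201), and Cux2-207 starts at 122050102. The sequences before those starts were not examined, so the count in the Cux1 window does not describe them. These matches are descriptions of the letters in these windows and say nothing on binding.

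After filtering, 118 to 6173 cells per library were kept, with median depths of 2478, 3636 and 4359 UMIs per cell in WT2, WT3 and WT4 against 2290 and 2217 in KO4 and KO5. The libraries KO4 and KO5 stood apart before any comparison of genes. Of their cells within the other limits, 13.9% and 40.4% had a haemoglobin share above 1% of UMIs and were left out, against 0.42% to 1.34% in WT2 to WT4. The mean level of Tcf4 over kept cells was 12.2, 12.6 and 12.2 UMIs per 10000 in WT2 to WT4, against 9.29 and 7.59 in KO4 and KO5. Outside this comparison, the library labelled WT5 was at 7.20, the library labelled WT1 at 4.65, the library labelled KO1 at 16.7 and KO2 at 9.12, so the order of the labels was not kept over all 9 libraries. The main comparison follows the libraries that the study kept, by a minimum number of cells and by leaving out a WT animal whose Tcf4 lay under the KO level, so the Tcf4 contrast between these libraries is in part what selected them. Counting at the 3′ end lies outside the disrupted exon and includes the remaining isoforms, so this level does not check the genotype. KO5 had no Xist UMI and 899 UMIs on 4 Y-linked genes, and the other 8 libraries had Xist and no Y-linked UMI, so 1 KO embryo was male. At most 46 cell barcodes were shared by any pair of libraries. The labels do not say which libraries shared a litter or a preparation day, and p-values measure the spread between these libraries.

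Cells were placed in classes by markers that included neither Cux1 nor Cux2, after each cell was thinned to 1800 UMIs, and the classes are named by the gate that defines them (upper layer-like and so on). Each level is a mean over cells, where a cell counts with its UMIs of the gene per 10000 of all its UMIs. They compare 1 gene between cells and libraries, and at the 3′ end they do not depend on transcript length.

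Classes are ordered below by their mean levels over WT2, WT3 and WT4. Among the classes listed there, both genes were highest in upper layer-like neurons and lowest in endothelial-like cells. Single libraries departed from this order, with Cux1 at 2.63 in undivided excitatory cells of WT3 and Cux2 at 1.26 in newborn neuron-like cells of WT4, each above the upper layer-like value of that library. Interneuron-like and Cajal-Retzius-like cells were among the gated classes left out of this order. Interneuron-like cells (11, 6 and 201 in WT2 to WT4) had Cux1 at 1.95, 4.004 and 1.51 and Cux2 at 3.02, 1.98 and 1.32. Their Cux2 was above the upper layer-like value in each library, and their Cux1 in WT2 and WT3 only. Cajal-Retzius-like cells had Cux2 at 0.0825, 0 and 0.204 (1, 0 and 4 UMIs), near the endothelial-like values of 0.171, 0 and 0.133. Cux1 in upper layer-like cells stood at 1.81, 2.46 and 2.07 UMIs per 10000 in WT2, WT3 and WT4. WT3 was highest and WT2 lowest, for Cux2 as well, where the same libraries had 0.860, 1.72 and 1.03. By the means over these 3 libraries the Cux1 order ran from upper layer-like cells (2.11 ± 0.326, SD, n = 3) to undivided excitatory cells (1.95 ± 0.626), newborn neuron-like cells (1.71 ± 0.593), deep layer-like cells (1.62 ± 0.350), cells in no gate (1.59 ± 0.264), intermediate progenitor-like cells (1.52 ± 0.283), undivided GABAergic cells (1.30 ± 0.236), radial glia- or astrocyte-like cells (1.23 ± 0.1001) and endothelial-like cells (0.688 ± 0.339). Of these steps, only the last, from radial glia- or astrocyte-like to endothelial-like cells, separated classes whose library values did not overlap.

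For Cux2 the WT means fell from 1.203 ± 0.458 (SD, n = 3) in upper layer-like cells to 1.14 ± 0.399 in undivided excitatory cells and 0.932 ± 0.764 in newborn neuron-like cells. Below these stood cells in no gate (0.733 ± 0.261), deep layer-like (0.520 ± 0.139), intermediate progenitor-like (0.482 ± 0.222), radial glia- or astrocyte-like (0.434 ± 0.0114) and undivided GABAergic cells (0.415 ± 0.142), with 0.102 ± 0.0900 in endothelial-like cells. Neighbours in this order overlapped over the 3 libraries except at the last step. The upper layer-like level was 1.62, 1.86 and 1.66 times the radial glia- or astrocyte-like level for Cux1 in WT2 to WT4, and 1.92, 4.04 and 2.39 times for Cux2. No fold over endothelial-like cells is given, since these held few UMIs of either gene in at least 1 WT library. Within the GABAergic lineage, WT4 was the only library of the 5 with many interneuron-like cells: its 201 such cells had 1.32 Cux2 UMIs per 10000, beside 0.287 in its 854 undivided GABAergic cells.

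In KO4 and KO5 the profile of Cux2 over the same classes was nearly flat. Its class means lay between 1.25 and 1.79 UMIs per 10000, a ratio of 1.43 from highest to lowest. Cux1 class means ran from 0.470 to 1.21, a ratio of 2.57, with the low end in intermediate progenitor-like cells (0.523 in 47 cells of KO4 and 0.417 in 16 cells of KO5). Leaving that small class aside, the Cux1 class means lay between 0.988 and 1.21. The newborn neuron-like class also held few cells. Its Cux1 mean of 0.9965 joined 1.68 in 45 cells of KO4 and 0.314 in 17 cells of KO5, where 1 UMI was counted. Endothelial-like cells, which are not known to make Cux2, had 1.38 and 1.81 Cux2 UMIs per 10000 in KO4 and KO5 (31 UMIs in 85 cells and 11 UMIs in 25 cells), against 0.171, 0 and 0.133 in WT2, WT3 and WT4 (1, 0 and 3 UMIs in 26, 11 and 38 cells). Both KO values were above those of all 3 WT libraries. The share of all genes with such an order was not computed for this small class. The library labelled WT5 was at 1.29 in its 42 endothelial-like cells, within reach of the KO libraries and not of the other WT libraries.

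**Figure D1:**
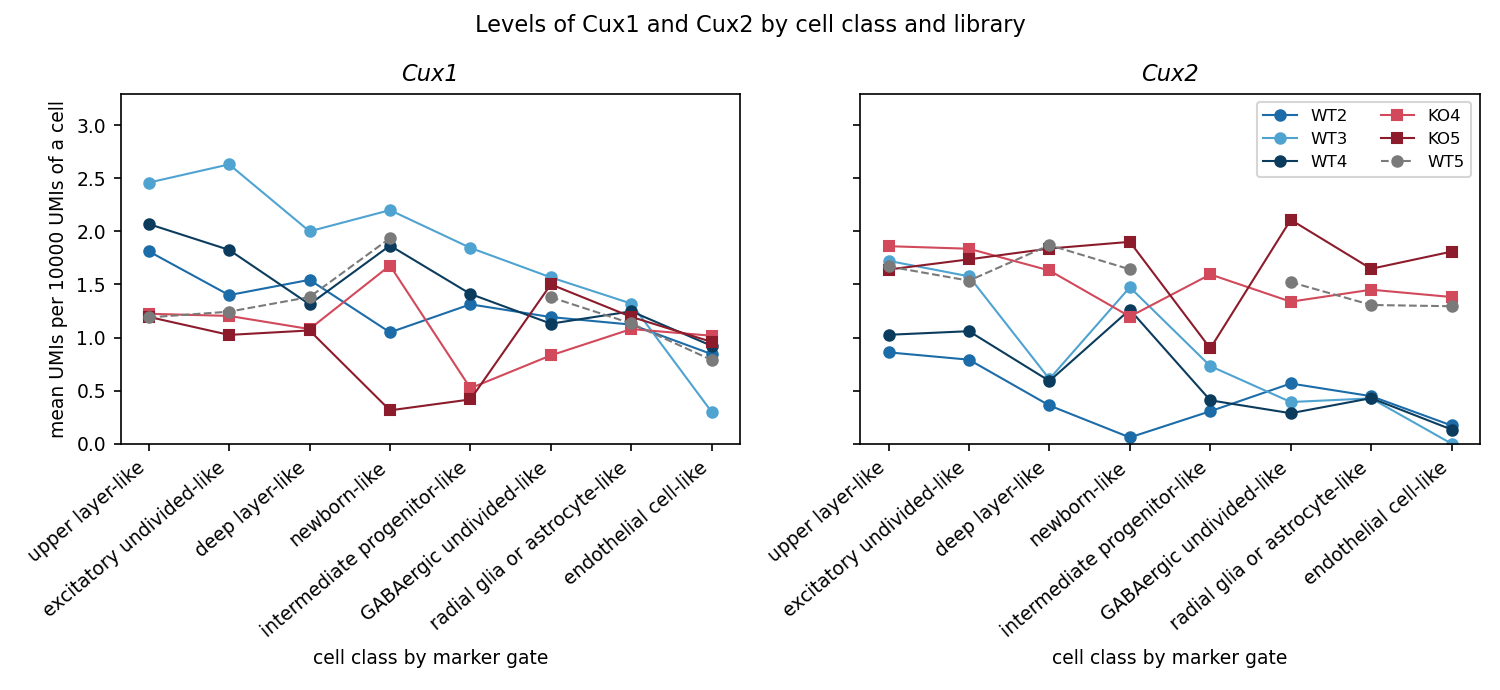
Level in UMIs per 10000 (y axis) for Cux1 (left) and Cux2 (right) in 8 marker-gated classes (x axis), 1 line per library, with classes of at least 10 cells plotted. Cux2 falls from upper layer-like to endothelial-like cells in WT2, WT3 and WT4, while KO4, KO5 and the library labelled WT5 keep 1.29 to 1.81 in endothelial-like cells.

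Other transcripts differed in the same libraries, and their part in the levels of Cux1 and Cux2 was not tested. Haemoglobin in upper layer-like cells, which as neurons are not a main source of it, was at 6.46, 8.05 and 4.58 UMIs per 10000 in WT2 to WT4 and at 31.2 and 72.1 in KO4 and KO5. In endothelial-like cells the summed level of 8 excitatory neuron markers was 3.64, 1.95 and 3.45 in the WT libraries and 11.7 and 11.4 in the KO libraries. Among these markers Neurod6, a transcription factor gene of cortical excitatory neurons, stood at 1.32, 0.491 and 1.14 against 5.29 and 4.75. The own markers of radial glia- or astrocyte-like and endothelial-like cells moved the opposite way: the 8 markers of radial glia or astrocytes summed to 140, 173 and 130 in that class in WT2 to WT4 and to 47.4 and 39.3 in KO4 and KO5, and the 8 endothelial markers in endothelial-like cells to 107, 137 and 125 against 49.9 and 40.8. In GABAergic cells the 8 GABAergic markers summed to 31.3, 32.2 and 32.5 against 18.0 and 15.1. The 8 excitatory neuron markers there were at 7.14, 5.34 and 4.71 against 12.4 and 13.85. Of the radial glia- or astrocyte-like cells, 27.2%, 27.5% and 41.9% were within 1 marker of the limit of the gate in the WT libraries, against 65.2% and 71.2% in KO4 and KO5. Undivided GABAergic cells were at 46.5%, 31.5% and 35.6% against 81.2% and 82.5%. In upper layer-like cells these shares overlapped, with 44.2%, 59.8% and 51.5% against 53.5% and 55.9%, as they did in deep layer-like cells, with 83.3%, 74.2% and 72% against 74.9% and 74.1%. The 8 excitatory neuron markers in upper layer-like cells were nevertheless lower in the KO libraries, at 36.9, 39.9 and 34.3 against 28.1 and 25.2. The 8 markers of radial glia or astrocytes in these cells were higher, at 7.70, 6.7 and 8.35 against 15.6 and 16.8.

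In upper layer-like neurons Cux1 fell in the KO libraries. Its WT levels of 1.81, 2.46 and 2.07 UMIs per 10000 came from 369, 428 and 1457 cells, and KO4 and KO5 were at 1.22 and 1.19 (1227 and 649 cells), with a mean of 2.11 ± 0.326 (SD, n = 3) for the former and 1.21 ± 0.0205 (SD, n = 2) for the latter. Both KO libraries lay below all WT libraries, which 31.4% of the tested genes also did. The difference was -0.49 on the log2(UMIs per 10000 + 1) scale (SE 0.11, 95% interval -0.73 to -0.25, adjusted p = 0.0277 by limma). In this fit 3.83% of 8307 genes were called, 2.80% as higher and 1.02% as lower in KO.

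Cux2 in the same cells was at 0.860, 1.72 and 1.03 UMIs per 10000 in WT2 to WT4, against 1.86 and 1.64 in KO4 and KO5. The KO libraries lay above WT2 and WT4, but KO5 lay below WT3, so the genotypes overlapped. The difference of 0.34 (SE 0.14, 95% interval 0.03 to 0.65) did not pass the test (adjusted p = 0.202 by limma). Without WT3 it was 0.50 (adjusted p = 0.0076).

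**Figure D2:**
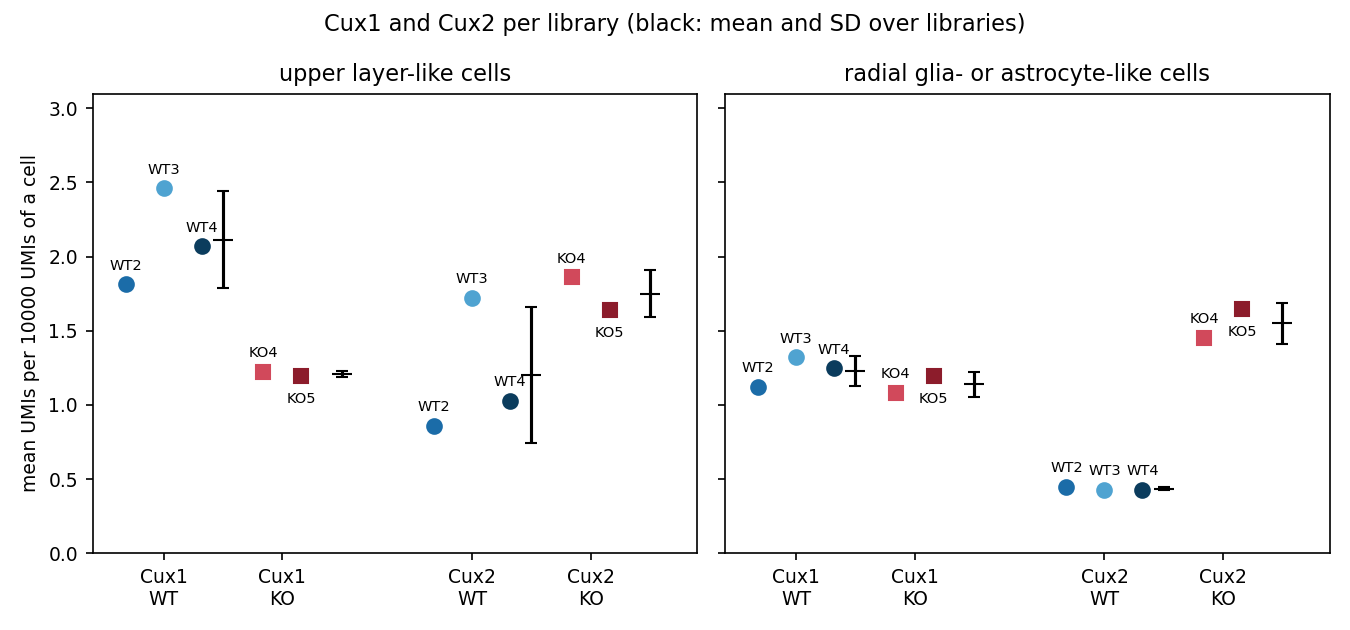
Mean UMIs per 10000 (y axis) of Cux1 and Cux2 by genotype (x axis) in upper layer-like cells (left) and radial glia- or astrocyte-like cells (right), 1 labelled point per library of the main comparison, with the mean and SD over libraries in black. In upper layer-like cells KO4 and KO5 lie below WT2 to WT4 for Cux1 (1.22 and 1.19 against 1.81 to 2.46), and in radial glia- or astrocyte-like cells they lie above them for Cux2 (1.45 and 1.65 against 0.427 to 0.448).

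The call of Cux1 in upper layer-like cells rested on both KO libraries and on the method. Without KO4 the adjusted p was 0.274 and without KO5 it was 0.497, at differences of -0.50 and -0.48. On summed UMIs the direction was the same but the adjusted p was 0.105 with edgeR and 0.155 with DESeq2. Undivided excitatory cells had differences of -0.46 for Cux1 (adjusted p = 0.0941) and 0.40 for Cux2 (adjusted p = 0.110), neither passing the limma test that called 3.34% of genes. Cux2 in these cells passed with edgeR (0.95, adjusted p = 0.0466), with DESeq2 (0.94, adjusted p = 0.0434) and with limma without WT3 (0.54, adjusted p = 0.0138), and Cux1 passed without WT2 (-0.60, adjusted p = 0.0452).

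Over all kept cells Cux1 was at 1.46, 2.13 and 1.56 UMIs per 10000 in WT2 to WT4 and at 1.12 and 1.198 in KO4 and KO5. The KO libraries were again below all WT libraries, but so were 43.9% of genes in this comparison, and the difference of -0.32 (SE 0.11) was not called (adjusted p = 0.165 by limma). Cux2 was at 0.623, 1.23 and 0.752 against 1.67 and 1.77, above all WT libraries as were 9.03% of genes. Its difference of 0.56 (SE 0.13) was not called either (adjusted p = 0.130), in a fit that called 1.15% of genes. DESeq2 gave 1.27 on the log2 scale of summed UMIs with an adjusted p of 0.00064, and limma without WT3 gave 0.69 with 0.0075.

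In radial glia- or astrocyte-like, GABAergic and deep layer-like cells Cux2 rose and Cux1 was not called. In radial glia- or astrocyte-like cells, the class of neural stem cells and early astrocytes, Cux2 was at 0.448, 0.427 and 0.429 UMIs per 10000 in WT2, WT3 and WT4 (162, 182 and 683 cells) and at 1.45 and 1.65 in KO4 and KO5 (633 and 344 cells). The WT libraries differed little among themselves, and both KO libraries lay far above them, as 15.2% of genes lay above all WT libraries here. The rise of 0.83 (SE 0.099, 95% interval 0.62 to 1.04) had an adjusted p of 0.00012 by limma, where 13.1% of genes were called, and leaving out any 1 of the 5 libraries kept it between 0.77 and 0.88 with adjusted p-values of at most 0.0066. Cux1 in these cells was at 1.12, 1.32 and 1.25 against 1.08 and 1.19, overlapping ranges with a difference of -0.06 (95% interval -0.30 to 0.18, adjusted p = 0.745 by limma) that turned to 0.05 with edgeR.

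GABAergic cells behaved alike for Cux2. Its level was 0.807, 0.454 and 0.459 in WT2 to WT4 (91, 103 and 1202 cells) and 1.44 and 2.02 in KO4 and KO5 (128 and 83 cells). Both KO values lay above all WT values, as for 12.7% of genes, and the rise of 0.79 (SE 0.15, 95% interval 0.48 to 1.11) passed the test (adjusted p = 0.0031 by limma, 3.55% of genes called), but not without KO5 (0.64, adjusted p = 0.232). In undivided GABAergic cells the rise was 0.93 (adjusted p = 0.00031, 4.87% of genes called), or 0.73 without KO5 (adjusted p = 0.106). Cux1 differed by -0.06 in GABAergic cells (95% interval -0.37 to 0.25, adjusted p = 0.883) and by -0.10 in undivided GABAergic cells (adjusted p = 0.813), with the sign turned by edgeR and DESeq2 in both.

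Deep layer-like neurons, which carry markers of corticofugal cells, had few cells in 2 WT libraries. Cux2 was at 0.360, 0.609 and 0.591 UMIs per 10000 in WT2, WT3 and WT4 (30, 31 and 254 cells, with 3, 6 and 73 UMIs) and at 1.63 and 1.84 in KO4 and KO5 (203 and 112 cells, with 79 and 47 UMIs). The KO values lay above the WT values, as for 8.48% of genes, and the rise of 0.85 (SE 0.18, 95% interval 0.48 to 1.22) was 1 of the few calls in this class (adjusted p = 0.0089 by limma, 0.554% of genes called). It did not pass without WT4 (adjusted p = 0.134), without KO4 (0.241) or without KO5 (0.550). Cux1 was at 1.54, 2.001 and 1.31 against 1.08 and 1.07, a difference of -0.33 (SE 0.19) that was not called (adjusted p = 0.719).

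**Figure D3:**
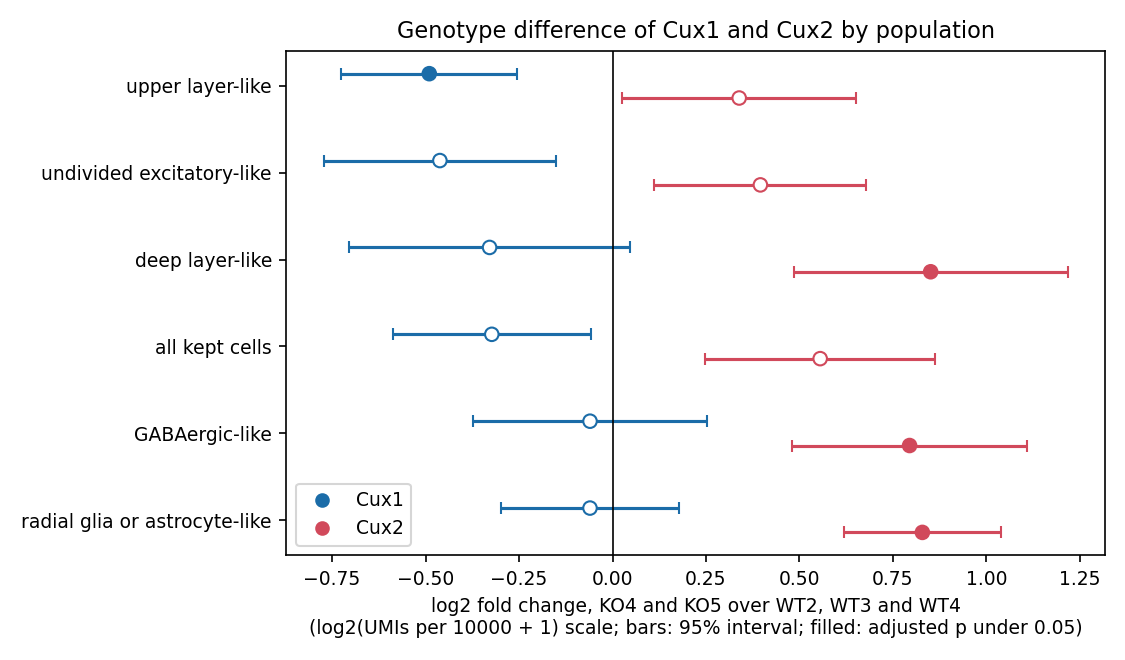
log2 difference of KO4 and KO5 over WT2, WT3 and WT4 on the log2(UMIs per 10000 + 1) scale (x axis) in 6 populations (y axis), with 95% intervals, filled where the adjusted p is under 0.05. Cux1 is called in upper layer-like cells (-0.49), and Cux2 in deep layer-like (0.85), GABAergic (0.79) and radial glia- or astrocyte-like cells (0.83).

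A call in one class and not in another does not show that the classes differ, so the difference between classes was compared within each library. The excess of upper layer-like over radial glia- or astrocyte-like cells, a comparison chosen after the data had been seen, was 0.41, 0.58 and 0.45 for Cux1 on the log2 scale in WT2 to WT4, against 0.10 and -0.0002 in KO4 and KO5. For Cux2 it was 0.36, 0.93 and 0.50 against 0.22 and -0.0038. Both genes thus stood out in upper layer-like cells of the WT libraries by more than in those of the KO libraries. The loss of this excess was -0.43 for Cux1 (SE 0.096, adjusted p = 0.0048) and -0.49 for Cux2 (SE 0.15, adjusted p = 0.035) by limma, in a comparison that called 17.6% of genes. Without KO4 it was -0.48 for Cux1, which was still called (adjusted p = 0.032), and -0.60 for Cux2 (adjusted p = 0.067). Without KO5 neither was called, at -0.38 for Cux1 (adjusted p = 0.128) and -0.38 for Cux2 (adjusted p = 0.340). The differences of upper minus deep layer-like cells were not called for Cux1 (-0.16, adjusted p = 0.9995) or Cux2 (-0.51, unadjusted p = 0.0043, adjusted p = 0.9995), with 0.0881% of genes called. Excitatory minus GABAergic cells gave -0.40 for Cux1 (adjusted p = 0.081) and -0.40 for Cux2 (adjusted p = 0.472), with 3.64% of genes called, although Cux2 was at -0.63 (adjusted p = 0.029) without WT2.

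The genes are set side by side in their ratio. log2((Cux1 + 0.1) / (Cux2 + 0.1)) in upper layer-like cells was 0.994, 0.490 and 0.947 in WT2 to WT4, against -0.567 and -0.427 in KO4 and KO5. The counted level of Cux1 was above that of Cux2 in each of the 3 WT libraries and below it in both KO libraries. Since levels compare 1 gene between libraries, only the shift of the ratio is read, not which transcript was more abundant. Of the Cux1 and Cux2 UMIs together, Cux1 gave 68.5%, 58.8% and 66.4% against 40.04% and 42.1%. The difference in the log ratio of -1.31 had an exact 2-sided permutation p of 0.1, the smallest that 3 libraries against 2 allow. The summed level of both genes reached 3.32 ± 0.779 (SD, n = 3) over the WT libraries, against 2.96 ± 0.176 (SD, n = 2) over the KO libraries, with overlapping ranges (exact permutation p = 0.8). Over all kept cells the log ratios were 1.104, 0.749 and 0.961 against -0.538 and -0.528, a difference of -1.47 (exact permutation p = 0.1).

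Over the 9 libraries the ratio did not follow the labels. In upper layer-like cells the library labelled WT5 was at -0.456 (1036 cells) and the library labelled WT1 at -0.378 (17 cells), within or near the range of KO4 and KO5, while the library labelled KO1 was at 0.788 (40 cells) and KO2 at 0.640 (17 cells), within the WT range. All 9 libraries as labelled gave a difference of -0.21 (exact permutation p = 0.619), and adding only the library labelled WT5 to the main comparison gave -0.99 (exact permutation p = 0.2). As labelled, the level of Cux1 was 1.78 ± 0.512 (SD, n = 5) against 1.61 ± 0.517 (SD, n = 4), with an exact permutation p of 0.619, and that of Cux2 was 1.42 ± 0.446 against 1.48 ± 0.384 (exact permutation p = 0.873). The libraries numbered 4 and 5 were deposited in another unit than the rest, and the labels name no batch. Among those 4, the Cux1 levels in upper layer-like cells were 2.07 in WT4 and 1.19 in the library labelled WT5, against 1.22 and 1.19 in KO4 and KO5, and those of Cux2 were 1.03 and 1.67 against 1.86 and 1.64. Among the other 5 libraries, Cux1 was at 1.39, 1.81 and 2.46 in WT1, WT2 and WT3 and at 1.73 in KO1 and 2.29 in KO2, while Cux2 was at 1.83, 0.860 and 1.72 against 0.961 and 1.44. Both genes overlapped between the labelled genotypes in both sets. Upper layer-like cells of the same libraries had haemoglobin at 45.3 UMIs per 10000 in the library labelled WT5, 16.6 in the library labelled WT1, 4.68 in the library labelled KO1 and 27.5 in KO2, so that the 4 libraries with Cux2 above Cux1 were among the 5 highest in haemoglobin. With 9 libraries in clusters no correlation was computed, and the part of haemoglobin or of free RNA in the ratio was not tested.

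**Figure D4:**
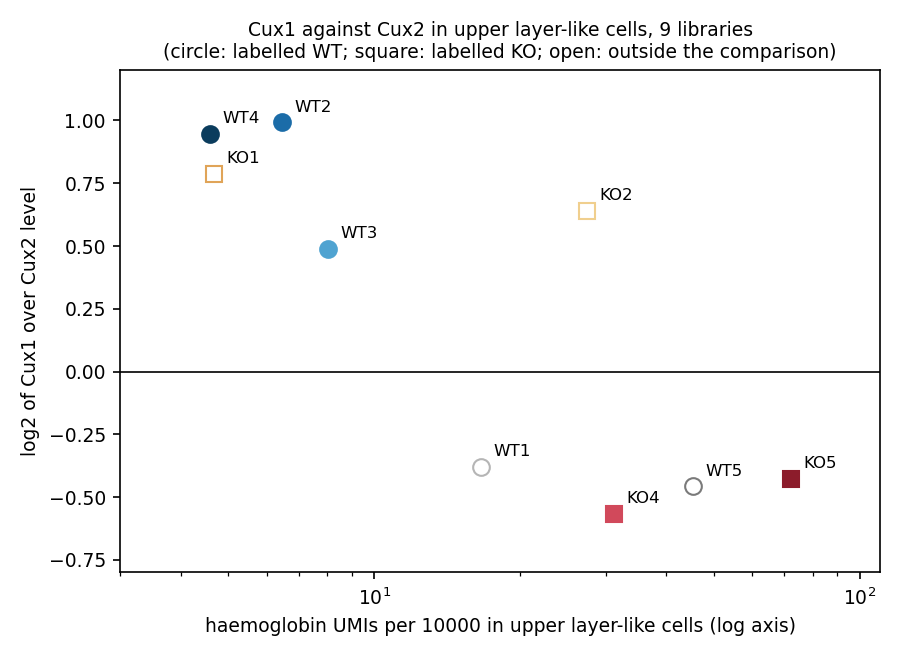
log2 ratio of Cux1 to Cux2 (y axis) against haemoglobin UMIs per 10000 (x axis, log scale) in upper layer-like cells, 1 labelled point per library, circles labelled WT and squares labelled KO, open where the library is outside the main comparison, with a line where both genes are level. The libraries WT2, WT3, WT4, KO1 and KO2 lie above 0 and WT1, WT5, KO4 and KO5 below it.

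The share of Cux1 among the UMIs of both genes was compared between classes within a library. It was 40.04% and 42.1% in upper layer-like and 44.3% and 42.7% in radial glia- or astrocyte-like cells of KO4 and KO5. WT3 had 58.8% in upper layer-like and 77.2% in radial glia- or astrocyte-like cells, WT4 had 66.4% and 77.1%, and WT2 had 68.5% and 75.0%. In the library labelled WT5 the shares were 41.7% and 46.5%. Over all classes of at least 20 cells the share ran from 31.0% (intermediate progenitor-like) to 59.4% (newborn neuron-like) in KO4 and from 31.2% to 42.7% in KO5. The WT shares ran from 67.2% to 92.3% in WT2, 58.8% to 78.6% in WT3 and 52.8% to 87.1% in WT4. These ranges spanned 28.3 percentage points over 10 classes in KO4 and 11.5 over 6 in KO5. In WT2, WT3 and WT4 they spanned 25.1 over 9, 19.8 over 7 and 34.3 over 13 classes. The ends in KO4 rested on few UMIs, 9 of Cux1 and 20 of Cux2 in intermediate progenitor-like and 19 and 13 in newborn neuron-like cells.

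Shares of cells with a UMI are given beside those of endothelial-like cells. They were computed on cells thinned to 1800 UMIs, since unthinned shares move with depth, and the exact 95% binomial intervals cover counting error only. Upper layer-like cells with a Cux1 UMI made up 27.4%, 36.0% and 30.5% in WT2 to WT4, against 18.7% and 18.49% in KO4 and KO5 (unthinned 35.0%, 57.7% and 57.5% against 25.7% and 23.7%). In endothelial-like cells the thinned Cux1 shares were 11.5% (95% interval 2.45 to 30.2%), 0 of 11 cells, which allows a share of up to 27.3% by the limit of 3 counts and 28.5% by the exact interval, and 15.8% (6.02 to 31.2%) in the WT libraries. KO4 and KO5 had 18.8% (11.2 to 28.8%) and 16.0% (4.54 to 36.1%). The upper layer-like shares of KO4 and KO5 lay within the endothelial-like intervals of the same library, as did those of WT2 and WT4. These intervals were wide, since endothelial-like cells were few. With 11 such cells WT3 allowed no firm comparison. Free RNA and transcripts of the cells themselves were not told apart, since Cux1 is made in many tissues and endothelial-like cells may hold their own.

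Cux2 was detected in 14.6%, 25% and 15.7% of thinned upper layer-like cells of WT2 to WT4, against 27.6% and 25.3% of those of KO4 and KO5 (unthinned 16.5%, 39.0% and 35.6% against 35.5% and 31.6%). The share in endothelial-like cells was 3.85% (0.0973 to 19.6%) in WT2, 0 of 11 cells in WT3 and 2.63% (0.0666 to 13.8%) in WT4, but 23.5% (15 to 33.97%) in KO4 and 28.0% (12.1 to 49.4%) in KO5. Median depths in endothelial-like cells were 4672, 3794 and 5366 UMIs in WT2 to WT4 and 2324 and 2215 in KO4 and KO5, beside 2430, 3928, 5135, 2298 and 2199 in upper layer-like cells. Radial glia- or astrocyte-like cells had Cux2 in 6.79%, 6.04% and 7.76% against 23.4% and 26.5%, and GABAergic cells in 11.0%, 6.80% and 7.07% against 21.9% and 27.7%. The KO shares in these classes lay within the endothelial-like intervals of the same library. With 85 and 25 endothelial-like cells these intervals are wide, so they cannot decide whether the shares were above the endothelial-like share. The part of free RNA in the shares was not tested. In upper layer-like cells of WT4 the Cux2 share lay above the endothelial-like interval, whereas the smaller endothelial-like classes of WT2 and WT3 allowed no such statement.

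**Figure D5:**
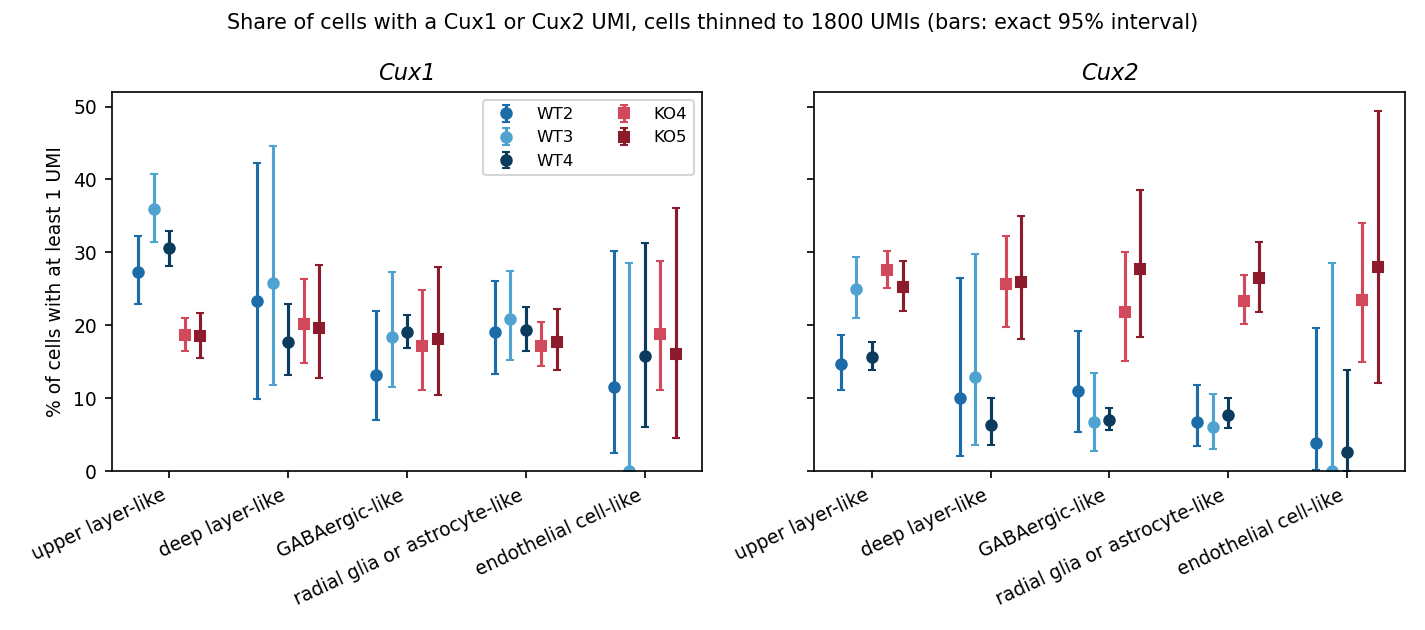
Percent of cells with at least 1 UMI of Cux1 (left) or Cux2 (right) (y axis) in 5 classes (x axis) after thinning to 1800 UMIs, 1 point per library with its exact 95% binomial interval. The Cux2 shares of KO4 and KO5 lie between 21.9% and 28.0% in all 5 classes, endothelial-like cells included, while those of WT2 to WT4 fall from 14.6 to 25% in upper layer-like to 0 to 3.85% in endothelial-like cells.

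Co-detection was set against what the separate shares predict. In thinned upper layer-like cells 5.69%, 9.81% and 4.26% had a UMI of both genes in WT2 to WT4, against 4.97% and 4.01% in KO4 and KO5 (exact permutation p = 0.5, ranges overlapping). The number of such cells was 1.42, 1.09 and 0.887 times that expected from independent detection in the WT libraries and 0.964 and 0.857 times in the KO libraries. Over all kept cells it was 1.496, 1.15 and 1.18 times in WT2 to WT4 and 1.04 and 0.972 times in KO4 and KO5. WT2 stood highest in both, and no interval was computed for these ratios.

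Across the 29 class and library points of WT2 to WT4 with at least 20 cells, the gene with the profile most like that of Cux1 was Cux2, among 8557 genes (Pearson r = 0.884 of log2(UMIs per 10000 + 1)). These points share libraries, depth and classes, so the values describe likeness and carry no p. After Cux2, the genes most like Cux1 were Mn1 (0.880), a transcriptional regulator gene, Ptp4a1 (0.840), which encodes a protein tyrosine phosphatase, 0610010F05Rik (0.820) and Fam49a (0.815). Cux2 was most like Cux1 and then Sema3a (0.807), a secreted axon guidance cue, 0610010F05Rik (0.773), Ppfia2 (0.764), a liprin of synapses, and Ptp4a1 (0.748).

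Genes related to Cux1 and Cux2 by family or setting are given for upper layer-like cells, where the median difference over all genes was -0.04. Of 4 other genes with CUT domains, Satb1 passed the filter and Onecut1, Onecut2 and Onecut3 did not. Satb1, the gene of a chromatin organiser, was at 0.360, 0.264 and 0.405 against 0.453 and 0.442 UMIs per 10000. Its KO values lay above the WT range, as did 11.2% of all genes, and the difference of 0.11 was not called (adjusted p = 0.325 by limma).

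Among 12 transcription factor genes of upper layer or callosal neurons, 1 rose and 1 fell, beside 2.80% and 1.02% of all genes, 9 had a negative difference, and the median was -0.17. Pou3f1, Rorb, Mef2c, Lmo4, Bhlhe22 and Zbtb18 of this list were also gate markers of these cells. Id2, a helix-loop-helix protein that lacks a DNA-binding region and sequesters E-proteins, fell from 13.1, 16.4 and 11.8 UMIs per 10000 to 5.32 and 4.28 (-1.34, SE 0.15, adjusted p = 0.00063 by limma). Nfia, a nuclear factor I gene active in glial and neuronal differentiation, rose from 1.88, 2.26 and 1.49 to 7.45 and 7.47 (1.57, SE 0.13, adjusted p = 7.2e-05). The KO values of both genes were far outside the WT range. Both KO libraries lay below all WT libraries for 5 of the 12, a share to be read against the 31.4% of all genes. Besides Id2 these were the POU factor Pou3f2 (-0.36), Bhlhe22 (-0.24), Zbtb18 (-0.47) and Nfib (-0.31), none of them called. Rorb lay above the WT range (0.26, adjusted p = 0.0849).

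The rise of Nfia was not limited to these cells, as it was at 1.86, 1.77 and 1.56 against 6.66 and 6.53 in GABAergic cells (1.48, adjusted p = 1.3e-06) and at 4.62, 5.23 and 3.50 against 9.63 and 8.36 in radial glia- or astrocyte-like cells (0.89, adjusted p = 0.0028). In both of these classes 4 of the 12 genes were called as higher and 0 as lower, with medians of 0.39 and 0.19. Over all genes 1.62% were called as higher and 1.92% as lower in GABAergic cells, and 4.28% and 8.83% in radial glia- or astrocyte-like cells. Id2 rose in GABAergic cells (2.90, 2.03 and 2.27 against 3.66 and 4.59, adjusted p = 0.042) and was at -0.17 in radial glia- or astrocyte-like cells (adjusted p = 0.482).

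Of 6 genes described as targets of Cux factors, only Cdkn1b, which encodes the cell cycle inhibitor p27, passed the filter in upper layer-like cells. It rose from 0.801, 1.45 and 0.798 UMIs per 10000 to 2.99 and 2.93 (0.99, SE 0.13, adjusted p = 0.0018 by limma). It rose as well in GABAergic (0.92, adjusted p = 0.0018) and radial glia- or astrocyte-like cells (1.04, adjusted p = 0.0016). Of all genes, 1.62% and 4.28% were called as higher in these classes. In deep layer-like cells Cdkn1b was not called (0.76, adjusted p = 0.065 by limma). Cdkn1a of the same list was tested in GABAergic cells (-0.21, adjusted p = 0.107) and deep layer-like cells (0.23, adjusted p = 0.43) and was not called in either.

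Among 6 deep layer genes, all of them markers of the competing deep layer gate, 3 rose and 0 fell in upper layer-like cells, beside 2.80% and 1.02% of all genes, with a median of 0.21. Bcl11b, the gene of a zinc finger factor of subcerebral projection neurons, went from 1.22, 0.726 and 1.51 UMIs per 10000 to 2.095 and 2.39 (0.61, adjusted p = 0.036). Fezf2, which specifies the same neurons, went from 0.210, 0.118 and 0.165 to 0.383 and 0.424 (0.27, adjusted p = 0.011), and Tle4, a corepressor of layer 6, from 0.302, 0.233 and 0.243 to 0.599 and 0.525 (0.31, adjusted p = 0.012). Foxp2 lay above the WT range without a call (0.16, adjusted p = 0.068), and Tbr1 and Sox5 overlapped between the genotypes. In GABAergic cells 2 of the 6 rose, Fezf2 (0.52, adjusted p = 0.0068) and Tbr1 (0.51, adjusted p = 0.027), and Foxp2 fell (-0.89, adjusted p = 0.0012). Of all genes in GABAergic cells, 1.62% were called as higher and 1.92% as lower. Striatal neuron-like cells made up 9, 8 and 147 of the 91, 103 and 1202 GABAergic cells in WT2 to WT4. In KO4 and KO5 they made up 5 and 2 of 128 and 83. The part of this make-up in the Foxp2 difference was not tested. Tbr1, a T-box factor of layer 6, was the 1 gene of the list called in radial glia- or astrocyte-like cells (0.39, adjusted p = 0.034). There 4.28% of all genes were called as higher and 8.83% as lower.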

How the data were processed

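The authors aligned 10x reads with Cell Ranger (2.1.0 in the processing notes; GRCm38/mm10), filtered cells and made matrices with Seurat 2.3.4 in R 3.6.0. They deposited WT4, WT5, KO4 and KO5 as UMI counts and WT1, WT2, WT3, KO1 and KO2 as natural log values, ln(1 + UMIs per 10000). Whole UMIs were recovered from the deposited natural log values for 100% of entries (tolerance 1e-06). Cells with 1000 to 5000 genes, 1800 to 10000 UMIs, under 6% mitochondrial and at most 1% haemoglobin UMIs were kept. A gate needed at least 2 of 8 markers, and more than any other lineage, in the cell thinned to 1800 UMIs. Doublets were not called, beyond the authors' limits on genes and UMIs.

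Main test: limma 3.58.1 (trend, robust) on log2(mean UMIs per 10000 + 1) per library, for genes that reached a mean level of 0.1 in at least 2 of 5 libraries, adjusted by Benjamini-Hochberg, called under 0.05. Folds on this scale understate the change of low genes. It was used because the deposited units were mixed. Alternatives were edgeR 4.0.16 and DESeq2 1.42.0 on summed UMIs, other pseudocounts, filters, depths, haemoglobin limits, gates and sets of libraries. Single values had exact 2-sided permutation tests. The scripts were tested on simulated data. Members, gene lists and comparisons were chosen with earlier results of these data known. Named are Cux1, Cux2, the listed genes that passed the test or whose KO libraries lay outside the WT range, and the 5 genes most like each. Id2, Nfia, Cdkn1a, Cdkn1b and deep layer genes in other classes were added after their values were seen. One fixed population and 2 listed genes are not reported here.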

Additional observations from a re-analysis of the deposited data

Results flagged for a closer look

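In deep layer-like cells, the library labelled WT5 stood apart from the other WT libraries for Cux2, at 1.87 UMIs per 10000 against 0.360 to 0.609 in WT2, WT3 and WT4. Its Tcf4 level was 7.20 UMIs per 10000, against 12.2 to 12.6 in those libraries.

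In radial glia- or astrocyte-like cells, the library labelled KO1 stood apart from the other KO libraries in the log2 ratio of Cux1 to Cux2, at 0.566 (116 cells), against -0.405, -0.394 and -0.433 in KO2, KO4 and KO5. Dixon's test was run on 24 groups of 4 or 5 libraries and marked these 2, and chance marks about 1 in 20 groups.

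The genotype difference differed between classes for both genes. From radial glia- or astrocyte-like to upper layer-like cells it changed by -0.43 for Cux1 (adjusted p = 0.0048 by limma) and by -0.49 for Cux2 (adjusted p = 0.035 by limma), lower in 2 of 2 KO libraries than in the 3 WT libraries. The comparison was chosen after the data had been seen, and without KO5 neither gene was called (adjusted p = 0.128 for Cux1 and 0.340 for Cux2), nor Cux2 without KO4 (0.067).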

How the results depend on the processing

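Under the alternatives of the main comparison, Cux2 differences and Cux1 differences in upper layer-like, deep layer-like, undivided excitatory and all kept cells kept their direction, while several calls changed. The cause was not tested. For Cux1 in upper layer-like cells the call was lost with edgeR TMM (-0.57), edgeR RLE (-0.58), DESeq2 (-0.58), no filter (-0.49), a filter at 0.5 (-0.49), all libraries as labelled (-0.094), WT5 added (-0.36), cells under 4000 UMIs (-0.58) and summed UMIs (-0.44), with -0.56 to -0.41 when a library was left out. Cux2 passed in all kept cells with DESeq2 (1.27), and leaving out a library gave 0.46 to 0.69 there and 0.23 to 0.50 in upper layer-like cells. As labelled, libraries of at least 10 cells were used: all 9 in all kept, upper layer-like and radial glia- or astrocyte-like cells, 7 in GABAergic and 6 in deep layer-like cells, where this is the fit with WT5 added. Cux2 in deep layer-like cells was not called with no filter (0.85), in that fit (0.62), thinned cells (0.83), no haemoglobin limit (0.72) or gates on unthinned cells (0.73), and ran from 0.77 to 0.91 with a library left out. In GABAergic cells Cux2 was not called with no filter (0.79), all libraries as labelled (0.57) or WT5 added (0.62), with 0.64 to 0.95 on leaving out a library, and in radial glia- or astrocyte-like cells with all libraries as labelled (0.28) or WT5 added (0.66).

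Cux1 turned sign where its difference was near 0: in GABAergic cells with edgeR TMM (0.058), edgeR RLE (0.055), DESeq2 (0.052), thinned cells (0.013) and a library left out (-0.16 to 0.040), in undivided GABAergic cells with edgeR TMM (0.023), edgeR RLE (0.024), DESeq2 (0.022) and a library left out (-0.32 to 0.13), and in radial glia- or astrocyte-like cells with edgeR TMM (0.047), edgeR RLE (0.057) and DESeq2 (0.057). KO minus WT shares turned in unthinned cells, to -3.69 percentage points for cells with both genes in all kept and -1.85 in deep layer-like cells, and to -3.82 for Cux1 in GABAergic cells, where leaving out a library gave -1.16 to 1.81. Leaving out a library moved excitatory minus GABAergic for Cux2 from -0.63 to -0.20, and upper layer minus radial glia from -0.48 to -0.38 for Cux1 and from -0.61 to -0.32 for Cux2.

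Genes called in all kept cells numbered 330 with DESeq2, 36 with no filter, 18 at a haemoglobin limit of 0.2% and 0 to 1394 with a library left out (0 without WT2, where 1767 had an unadjusted p under 0.05). In upper layer-like cells they were 25, 126 and 112 with no filter, the filter at 0.5 and cells under 4000 UMIs, and 54 to 863 with a library left out. With WT5 added or all libraries as labelled limma called 0 genes in both populations (unadjusted p under 0.05 for 192 and 295 genes in all kept and 404 and 404 in upper layer-like cells). edgeR and DESeq2 were not run on those sets of libraries.

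Replicate numbers occur in both genotypes and were not taken to pair the libraries, since the labels tie them to nothing shared and the pair numbered 1 was under 0.1: the deviations of WT1 and KO1 correlated at 0.0287 in upper layer-like cells, those of WT2 and KO2, WT4 and KO4, and WT5 and KO5 at 0.273, 0.32 and 0.531, and WT5 and KO4 at 0.483. WT2, WT4 and WT5 thus correlated best with their own number, but WT1, KO1 and KO4 did not. With the number as a replicate block, over the libraries 1, 2, 4 and 5 in all kept, upper layer-like and radial glia- or astrocyte-like cells, Cux1 differed by -0.010 in upper layer-like cells and Cux2 by 0.20 in radial glia- or astrocyte-like cells. Over the libraries 4 and 5 alone, for want of cells in the others, Cux2 differed by 0.36 in deep layer-like and 0.49 in GABAergic cells. No block fit called Cux1 or Cux2. limma called 0 genes with the block in all kept and upper layer-like cells (unadjusted p under 0.05 for 198 and 159) and 10 in deep layer-like cells. Without the block the same libraries gave the same differences (-0.010, 0.20, 0.36 and 0.49) and 0 calls (unadjusted p under 0.05 for 145, 224 and 331).

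Not run were a haemoglobin limit of 0.2% outside all kept cells and gates of 3 markers in deep layer-like cells, for want of cells, and the newborn neuron-like comparison (17 cells in KO5). At 1 to 2 UMIs per 10000, most cells of 1800 UMIs hold no UMI of either gene, which limits the shares and co-detection.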
